A study of Mus musculus with 24 samples.

Results

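The genes described here are 6 members of the neurotrophin system, chosen by their symbols and matched to 6 Ensembl genes of the 38293 in the mRNA count table: the ligands Bdnf and Ntf3, the receptors Ntrk2, Ntrk3 and Ngfr, and Vgf, a secretory precursor that BDNF induces. All 6 were among the 18593 genes that passed the filter, which asked for over 5 reads in 80% or more of any 1 group's libraries. The tissue was the nucleus accumbens (NAc) of C57BL/6J mice aged 9 weeks, collected the day after the last stressor of Subchronic Variable Stress (SCVS), in which foot shock, tail suspension and physical restraint alternate. There were 4 groups, namely unstressed males (NSM), males given SCVS (SM), unstressed females (NSF) and females given SCVS (SF). Per the study's methods the females were in estrus or proestrus. Each group had 3 mRNA and 3 small RNA libraries, each made from 10 punches pooled from 5 mice, so that n = 3 pools and the spread between single mice was not measured.

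Neurotrophins are secreted growth factors that neurons use to sustain survival and to adjust synapses to activity. BDNF acts through TrkB (the product of Ntrk2) and NT-3 through TrkC (Ntrk3), receptor tyrosine kinases that feed the Ras-MAPK, PI3K-Akt and phospholipase C pathways, while p75 (Ngfr) binds all neurotrophins and their unprocessed precursors. In the striatum Bdnf mRNA is sparse, and much of the BDNF protein there is carried in from neurons of the cortex and other input regions, whereas the TrkB receptor is made locally.

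The mRNA libraries held between 41076780 and 60867747 counted reads. Markers of medium spiny neurons, the principal cells of the NAc, were high in all 12 libraries: their 10 genes summed to between 5645 and 7085 CPM (counts scaled to a common library size), and Ppp1r1b, which encodes DARPP-32, ranged from 761 to 1006 CPM. Markers of cortical glutamatergic neurons differed widely. Their 9 genes summed to 25.2 to 39.1 CPM in NSM, 67.3 to 218 in SM, 40.1 to 389 in NSF and 62.5 to 135 in SF, and none of the 9 was at 0 in any library. The 4 libraries highest in this sum were NSF3 (389 CPM, named by group and replicate number), NSF1 (277), SM3 (218) and SM2 (170), and SF3 followed at 135 with no clear gap, above SM1 at 67.3. Calls that changed when the 4 highest were left out are given with and without them, a cut at 4 that was chosen after the data had been seen. Leaving them out left SM1 alone in SM and NSF2 alone in NSF. A second difference was tied to base composition: the 630 genes with a transcript GC content of at least 60% deviated by a median between -0.33 (SM2) and 0.24 (NSF3) on the log2 scale from their mean over the 12 libraries. Other marker sums also lay higher in every SM than in every NSM library: red blood cells (30.4 to 35.5 against 16.9 to 21.1 CPM, all 3 genes called), oligodendrocytes (5528 to 5559 against 4601 to 5145, none of 6 called), microglia (223 to 244 against 204 to 216, 1 of 5 called) and pericytes and smooth muscle (141 to 158 against 132 to 135, 1 of 6 called). Every NSF library also lay above every NSM library for red blood cells (23.5 to 29.6 CPM), oligodendrocytes (5250 to 5622) and pericytes and smooth muscle (139 to 146). The same held for every SF library for red blood cells (22.8 to 25.1), microglia (219 to 247) and pericytes and smooth muscle (139 to 145). The part of these marker sums in the results was not tested.

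Per kilobase of exon, Vgf was the most abundant member, at a mean of 64.7 CPM per kb over the 12 libraries, and Ntrk2 followed at 51.3. By reads Ntrk2 led, at a mean of 37820 per library against 8134 for Vgf. The order per kilobase rests on merged exon lengths, 15094 bases over 5 transcripts for Ntrk2 and 2553 over 1 for Vgf. The libraries of these 2 genes overlapped, from 35.2 to 95.3 CPM per kb for Vgf and from 46.6 to 55.8 for Ntrk2. In all 3 SM libraries, and in NSM1, Vgf lay below Ntrk2, and in the other libraries it lay above. Ntrk3 came next at 11.3 CPM per kb, with no library in the range of either neighbour. Ngfr (0.602), Bdnf (0.362) and Ntf3 (0.129) formed a low range in which neighbours overlapped, since Bdnf ran from 0.0905 to 0.969 CPM per kb. The receptors for BDNF and NT-3 were thus read far more often than the ligands.

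**Figure D1:**
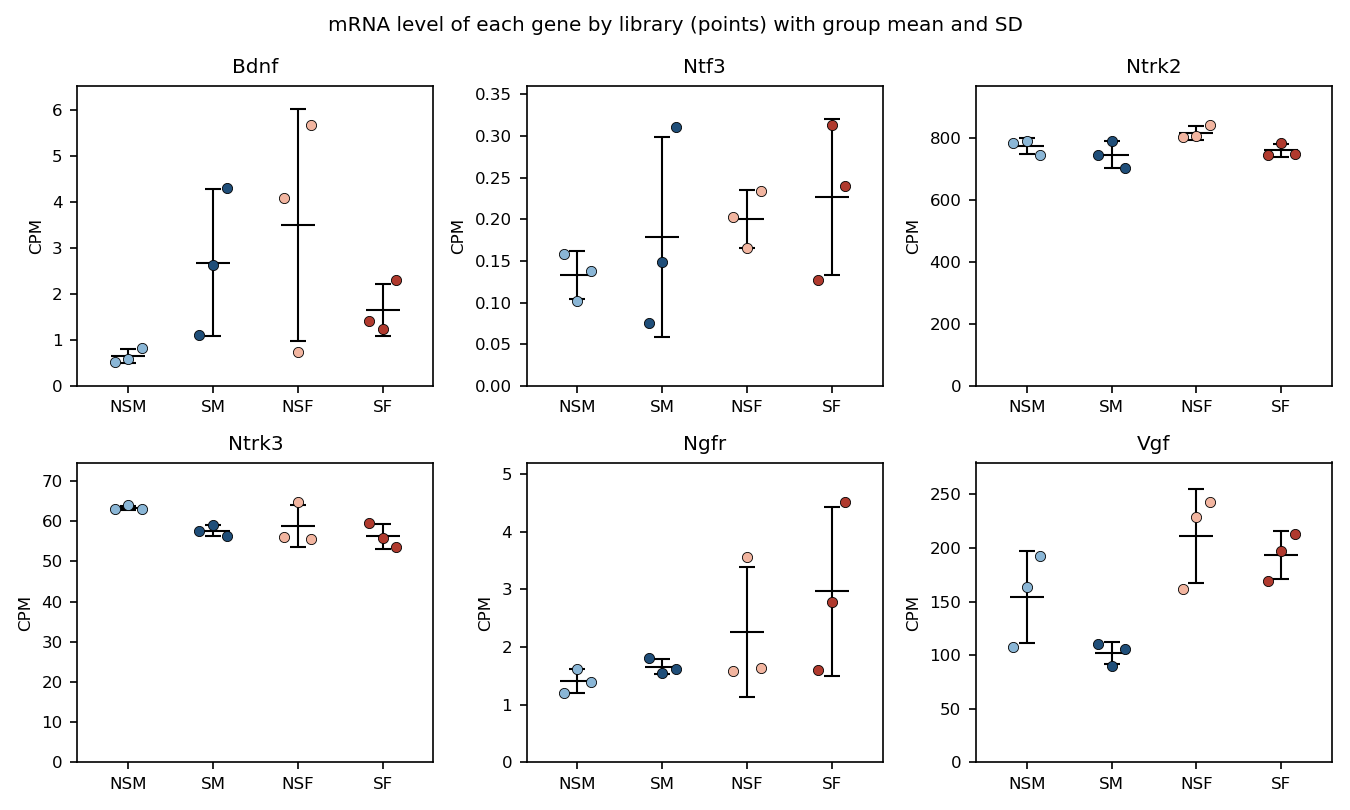
CPM of each of the 6 genes (y axis, starting at 0) in the 4 groups (x axis), with 1 point per library, the group mean as a horizontal bar and the SD as whiskers, n = 3 pools per group. Bdnf spreads widely in SM and NSF and Ngfr in both female groups, Ntrk2 and Ntrk3 vary little, and the SM libraries of Vgf sit between 90.0 and 110 CPM.

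A difference was called at an unadjusted p below 0.05 with a fold change of at least 1.3, from voom-limma fitted to all 12 libraries, and the p-values given are those adjusted over all genes. By this rule 2 of the 6 members were called in males after SCVS (Bdnf up, Vgf down), where 6.44% of all tested genes were called. None was called in females, where 1.73% of all genes were, and none of the 6 had an unadjusted p below 0.05 there with limma (4.23% of all genes did) or a call with edgeR or DESeq2. The female SCVS effect minus the male effect (the interaction) was called for 1 member, Bdnf, against 4.42% of all genes. Between unstressed females and males 2 members were called, Bdnf and Vgf, both higher in NSF, against 5.31% of all genes, of which 4.17% were higher. No member had an adjusted p below 0.05 in any of these 4 comparisons, where 3.32%, 0%, 0.0269% and 0.285% of all genes did, in the order given.

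**Figure D2:**
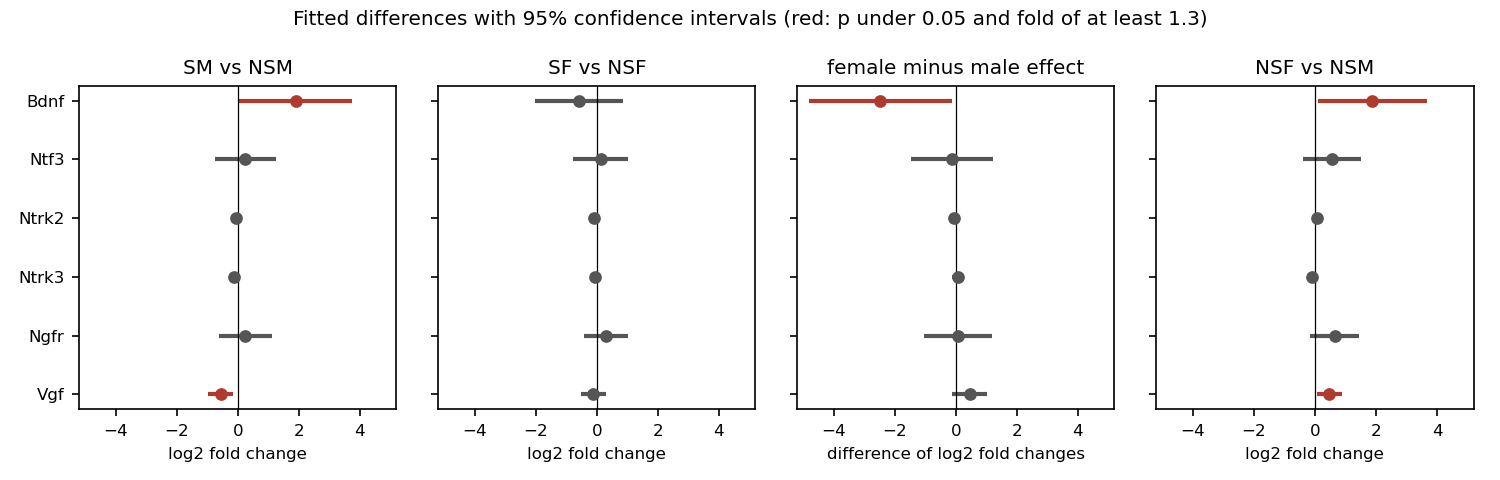
Fitted log2 fold change of each gene (points) with its 95% confidence interval (lines) in 4 panels: SCVS in males, SCVS in females, the female minus the male SCVS effect, and unstressed females against unstressed males. Red marks the calls, and the intervals of Bdnf are the widest, from 0.06 to 3.74 in males.

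Bdnf (ENSMUSG00000048482), the ligand of TrkB, lies on the plus strand at chr2:109514857-109567204 (NCBIM37) and has 7 annotated transcript starts. It was read 29 to 267 times per library, 99.3 times on average. In NSM it stood at 0.53, 0.589 and 0.828 CPM, and in SM at 1.11, 2.64 and 4.30 CPM. The male groups did not overlap, as was so for 23% of all tested genes. In NSF the values were 4.08, 0.742 and 5.67 CPM, and in SF 1.42, 1.23 and 2.29 CPM. NSF3 was the highest library of all 12 and SM3 the next, while NSF2 lay within the range of unstressed males.

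SCVS upregulated Bdnf in males by the rule above, from 0.649 ± 0.158 CPM (SD, n = 3) to 2.68 ± 1.60 CPM, a log2 fold change of 1.90 with a 95% interval from 0.06 to 3.74 (SE 0.86, limma adjusted p = 0.22). In females Bdnf stood at 3.50 ± 2.52 CPM without stress and 1.65 ± 0.567 CPM after SCVS, with a log2 fold change of -0.58 and an interval from -2.01 to 0.86 (adjusted p = 0.948). The difference between the 2 SCVS effects was -2.47 on the log2 scale (SE 1.09, adjusted p = 0.498). Unstressed females exceeded unstressed males by 1.88 (SE 0.83, adjusted p = 0.304), although NSF2 lay inside the male range. These comparisons share control libraries, so that the low values of NSM enter all but the female one.

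The level of Bdnf moved with the cortical marker genes, library by library. Slc17a7, the vesicular glutamate transporter of cortical projection neurons, stood at 12.0, 4.02 and 16.4 CPM in NSM, at 39.5, 119 and 162 CPM in SM, at 209, 16.4 and 297 CPM in NSF, and at 37.0, 34.5 and 93.2 CPM in SF. NSF3 was the highest library for both genes, and SM2, SM3 and NSF1 were the next 3 for both, while NSF2 sat with unstressed males for both. Over the 12 libraries the log2 CPM of Bdnf and the mean log2 CPM of the 9 cortical markers had a Pearson r of 0.981 and a Spearman rho of 0.972 (permutation test, 2-sided, p = 0.00001 for each, the smallest 100000 resamples can give, adjusted p = 0.00012 over 12 such relations). With the 2 libraries of the most extreme marker level left out r was 0.967, and with group means removed it was 0.969. In bulk tissue fewer cells of a type and less RNA per cell cannot be told apart.

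**Figure D3:**
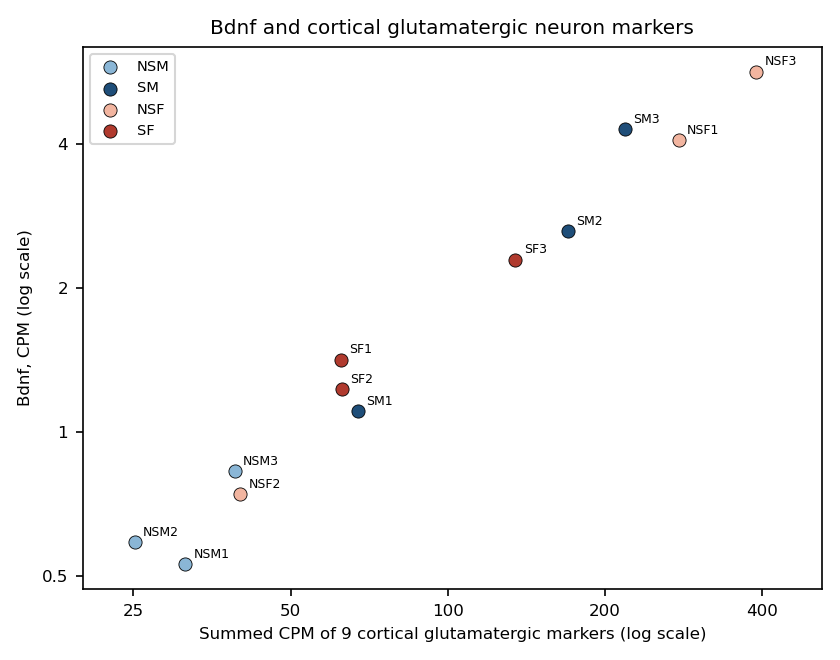
Bdnf (y axis, CPM, log scale) against the summed CPM of 9 cortical glutamatergic neuron markers (x axis, log scale), 1 point per mRNA library, coloured by group. The points lie along 1 line from NSM1 and NSM2 at the lower left to NSF3 at the upper right, and NSF2 lies among the NSM libraries.

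All 9 cortical markers had a positive log2 fold change in males, with a median of 2.35, and 2 of the 9 were called. In the interaction 6 of 9 were called lower, and in NSF against NSM 6 of 9 were called higher, with a median of 2.75. With the mean level of these markers as a covariate, the log2 fold change of Bdnf was -0.10 in males, 0.16 in females, 0.26 in the interaction and -0.32 in NSF against NSM (limma adjusted p of 0.876 or more), so that none was called and all 4 changed sign. Without SM2, SM3, NSF1 and NSF3 it was 0.80 in males, 1.08 in females, 0.28 in the interaction and 0.22 in NSF against NSM, of which only the female value was called (limma adjusted p = 0.999). This fit was chosen after the data had been seen. Groups of 1 library, assumed to vary like the others, entered that fit. What the cortical markers contribute to the level of Bdnf was not tested beyond these fits.

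Single libraries also decided these calls. In males the call was lost in 7 of 12 fits that left out 1 library, namely NSM1, NSM2, NSM3, SM2, SM3, SF1 or SF2, with log2 fold changes between 1.47 and 2.09. The interaction was lost without any one of NSM1, NSM2, NSM3, SM2, SM3, NSF1, NSF3, SF1 or SF2 (-2.66 to -1.90). The excess of NSF over NSM was lost without NSM1, NSM2, NSM3, NSF1, NSF3 or SF1 (1.29 to 2.06). In females, leaving out NSF2 gave -1.61 (adjusted p = 0.113), which would be called, and leaving out NSF3 gave 0.0099. Leaving out NSF2 also gave 1.90 in males (adjusted p = 0.0477), -3.51 in the interaction (adjusted p = 0.0172) and 2.91 in NSF against NSM (adjusted p = 0.0057), so that these 3 reached an adjusted p below 0.05 there.

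Among 14048 other genes with a symbol and a mean of at least 50 reads, the library pattern most like that of Bdnf belonged to Gm11549 (Pearson r = 0.984 over 12 libraries), Nxph3 (r = 0.979) and Prdm8 (r = 0.976). After group means were removed these 3 values were 0.97, 0.983 and 0.954.

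Ntf3 (ENSMUSG00000049107), which encodes NT-3, lies on the minus strand at chr6:126051431-126116762. It was read only 3 to 16 times per library, 9 times on average. It stood at 0.159, 0.102 and 0.138 CPM in NSM, at 0.0755, 0.149 and 0.31 CPM in SM, at 0.203, 0.165 and 0.234 CPM in NSF, and at 0.127, 0.313 and 0.24 CPM in SF. The stressed groups spanned the unstressed groups of the same sex at both ends, whereas NSF did not overlap with NSM, as was so for 19.5% of all genes. The log2 fold change was 0.25 in males (95% interval -0.76 to 1.25), 0.12 in females (-0.77 to 1.02), -0.12 in the interaction (-1.47 to 1.22) and 0.55 in NSF against NSM (-0.41 to 1.498). At this depth no difference was detectable, and the intervals leave room for large changes either way. The male value turned to -0.23 without SM3 and to -0.39 with the cortical covariate.

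Ntrk2 (ENSMUSG00000055254), the gene of TrkB, lies on the plus strand at chr13:58907957-59235331 and was read 29670 to 48842 times per library. The counts sum the full-length kinase receptor and the truncated forms that glia make in large amounts. It stood at 786, 792 and 746 CPM in NSM, at 747, 790 and 704 CPM in SM, at 804, 806 and 842 CPM in NSF, and at 747, 785 and 750 CPM in SF. The highest library was 1.20 times the lowest, the narrowest range of the 6 genes. The 3 SF libraries lay below the 3 NSF libraries, as was so in either direction for 11.3% of all genes. NSF also lay above NSM without overlap, as was so in either direction for 19.5%. The fitted differences were small: -0.05 in males (interval -0.16 to 0.06), -0.10 in females (-0.21 to 0.0054) and 0.08 in NSF against NSM (-0.03 to 0.19). The SCVS effects of the sexes differed by -0.05 (-0.20 to 0.10). The intervals of both SCVS effects lie inside the 1.3-fold threshold. The genes most like Ntrk2 over the 12 libraries were Arfgef2 (r = 0.896), Odz3 (r = 0.868) and Tbx3 (r = 0.86).

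Ntrk3 (ENSMUSG00000059146), the gene of the NT-3 receptor TrkC, lies on the minus strand at chr7:85337248-85723294. It stood at 63.0, 63.9 and 63.0 CPM in NSM, at 57.5, 59.1 and 56.4 CPM in SM, at 56.1, 64.9 and 55.6 CPM in NSF, and at 59.5, 55.7 and 53.5 CPM in SF. All SM libraries lay below all NSM libraries, and these groups did not overlap, in either direction, for 23% of all genes. The 3 NSM values had an SD of 0.539 CPM. The male log2 fold change was -0.14 (SE 0.06, adjusted p = 0.213), past the unadjusted p threshold but under the 1.3-fold threshold and therefore not called. In females it was -0.06 (interval -0.19 to 0.06), in the interaction 0.07 (-0.11 to 0.25) and in NSF against NSM -0.11 (-0.24 to 0.02). Ntrk3 ran against the cortical markers, with a Pearson r of -0.777 and a Spearman rho of -0.783 over 12 libraries (permutation test, 2-sided, adjusted p = 0.0152 and 0.0139 over 12 relations), and r was -0.756 without the 2 most distant libraries. NSF2, the unstressed female library low in cortical markers and Bdnf, was the highest for Ntrk3. With the cortical covariate the male value was -0.0030 (adjusted p = 0.988), and without the 4 libraries it was -0.14 (adjusted p = 0.447). In NSF against NSM the sign turned, to 0.05 with the covariate and 0.03 without the 4 libraries. The genes most like Ntrk3 were Phc3 (r = 0.905), Ylpm1 (r = 0.903) and Grik2 (r = 0.899), the last a kainate receptor subunit.

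Ngfr (ENSMUSG00000000120), the gene of p75, lies on the minus strand at chr11:95430132-95449049. It stood at 1.20, 1.63 and 1.40 CPM in NSM, at 1.81, 1.55 and 1.62 CPM in SM, at 1.58, 3.56 and 1.64 CPM in NSF, and at 1.61, 2.78 and 4.52 CPM in SF. NSF2, SF2 and SF3, all female, were the highest libraries, and in all others it lay at or under 1.81 CPM. No comparison was called in the fit to all libraries. The log2 fold change was 0.25 in males (interval -0.62 to 1.11), 0.31 in females (-0.40 to 1.03), 0.07 in the interaction (-1.06 to 1.19) and 0.65 in NSF against NSM (-0.16 to 1.46). The female value depended on single libraries: it was 0.68 to 0.75 and called when NSF2 or SF1 was left out, and -0.03 without SF3. NSF against NSM was called with the cortical covariate (1.17, limma adjusted p = 0.97). Without the 4 libraries it was 1.35, but NSF2, the highest NSF library for Ngfr, was then alone in its group. With NSF2 left out instead it was 0.21. The genes most like Ngfr were Pgr, the progesterone receptor (r = 0.957), Serpinf1 (r = 0.94) and Klf16 (r = 0.922). Cholinergic neurons of the basal forebrain are known for p75. Of their 5 listed markers 3 could be matched, which summed to 73.5 to 99.6 CPM in the 12 libraries and gave no call in any of the 4 comparisons. The log2 fold changes of Chat, Slc5a7 and Slc10a4 were 0.25, 0.19 and 0.06 in females and -0.22, -0.26 and -0.02 in NSF against NSM. For Chat and Slc5a7 the unadjusted limma p was below 0.05 in both, with changes under the 1.3-fold threshold.

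Vgf (ENSMUSG00000037428) encodes a granin-like precursor of secreted peptides that BDNF and neuronal activity induce, and it lies on the plus strand at chr5:137506165-137509221. It was read 4231 to 13876 times per library. It stood at 107, 163 and 192 CPM in NSM, at 110, 90.0 and 106 CPM in SM, at 162, 229 and 243 CPM in NSF, and at 169, 197 and 213 CPM in SF. The SM libraries lay below all others except NSM1, which fell among them. SCVS downregulated Vgf in males by the rule used here, from 154 ± 43.2 to 102 ± 10.6 CPM (SD, n = 3), a log2 fold change of -0.56 with an interval from -0.96 to -0.16 (SE 0.19, limma adjusted p = 0.112). In females it stood at 211 ± 43.6 and 193 ± 22.2 CPM, a log2 fold change of -0.11 (interval -0.51 to 0.29). The SCVS effects differed by 0.45 (interval -0.12 to 1.01), which was not called, so that a difference between the sexes was not shown. Unstressed females exceeded unstressed males by 0.47 (SE 0.19, adjusted p = 0.247).

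Vgf has a GC-rich transcript, at 64.8% GC against 40.9% for Bdnf, 47.7% for Ntf3, 48.3% for Ntrk2, 54% for Ntrk3 and 58.6% for Ngfr. Its level followed that of the 630 GC-rich genes. Over the 12 libraries the log2 CPM of Vgf and the median deviation of those genes had a Pearson r of 0.948 and a Spearman rho of 0.951 (permutation test, 2-sided, p = 2e-05 and 4e-05, adjusted p = 0.00012 and 0.00024), and r was 0.916 without the 2 most distant libraries. Among the 72 expressed genes of 64% GC or more the median log2 fold change was -0.18 in males and 0.44 in NSF against NSM, where 58.3% of them were called, against a median of 0.01 in males and -0.01 in NSF against NSM for the 2630 genes of 48 to 52% GC.

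After each library's counts were rescaled along a curve fitted on transcript GC, an alternative added after the data had been seen, Vgf stood at 145, 174 and 173 CPM in NSM, 135, 124 and 114 in SM, 149, 193 and 192 in NSF, and 170, 171 and 175 in SF. On these values the SM libraries lay below all 9 others. The male log2 fold change was then -0.40 (limma adjusted p = 0.0312) and remained called, the interaction 0.36 (adjusted p = 0.346, under the fold threshold), and NSF against NSM 0.11 (adjusted p = 0.661) and no longer called. The remaining alternatives used counts without the GC correction. On these the male call (-0.56) was lost without NSM3 (-0.38), with the cortical covariate (-0.53) and without the 4 libraries high in cortical markers (-0.44). On the same uncorrected counts the call in NSF against NSM was lost without NSM1 (0.22), NSF2 (0.40) or NSF3 (0.35). It was also lost with the cortical covariate (0.51) and with the libraries of this comparison alone. Without NSM1 the interaction was called there, at 0.69 (limma adjusted p = 0.253).

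**Figure D4:**
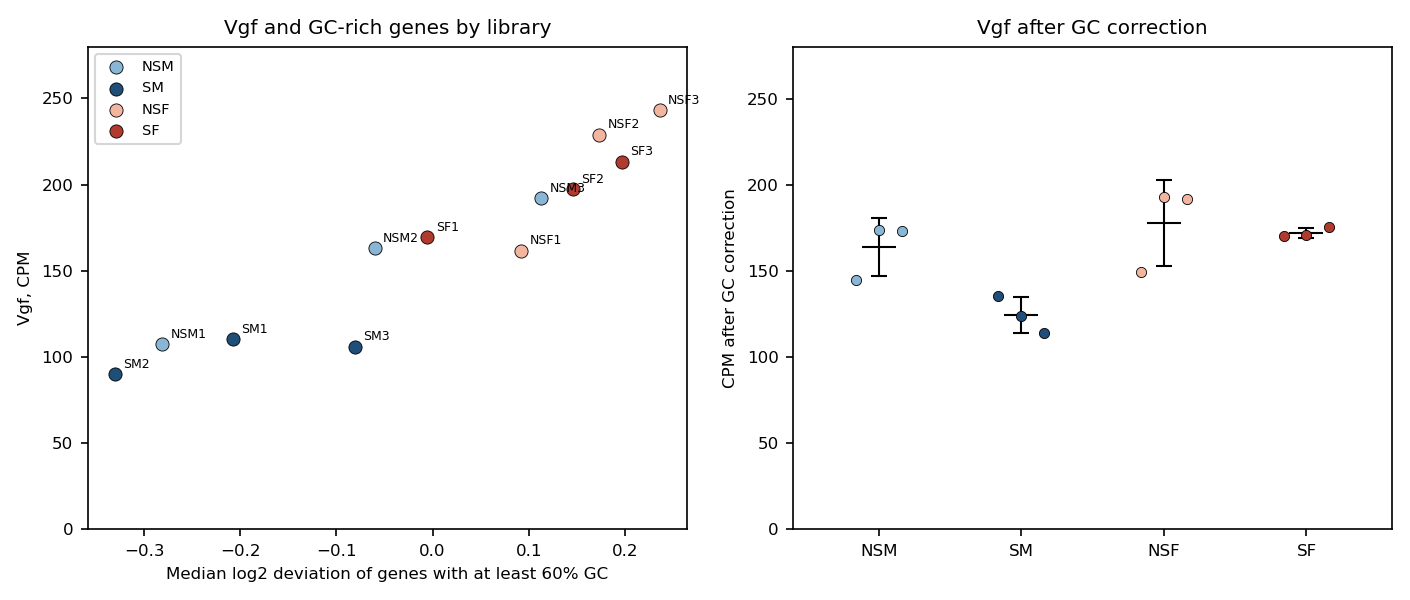
Left, Vgf (y axis, CPM from 0) against the median log2 deviation of the 630 GC-rich genes (x axis), 1 point per library, and right, Vgf after GC correction (CPM from 0) by group with mean and SD, n = 3. On the left Vgf climbs with the GC-rich genes from SM2 to NSF3, and on the right the 3 SM libraries sit between 114 and 135 CPM, below all others.

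The genes most like Vgf were Zfp444 and Egr4 (r = 0.98 each) and Gm13889 (r = 0.979), and Egr4, an activity-induced transcription factor, has 68.4% GC. Bdnf and Vgf are both textbook targets of CREB, the transcription factor that binds the cAMP response element (CRE) after neuronal activity, and they were called in opposite directions in males. Their start regions are shown for that reason. In windows from 250 bases upstream to 50 downstream of every annotated start of the 6 genes (NCBIM37), both strands were searched for the CRE TGACGTCA and for the variant TCACGTCA. The full CRE was found at 1 start, that of Vgf, and in 1.79% of 32851 RefSeq promoter windows of the same length (GRCm38.p6). The variant was found at 1 of 7 starts of Bdnf and 1 of 3 starts of Ntrk2, and in 0.441% of the windows. The matches stand in capitals in 30-base stretches, each at chr5:137506064-137506093, chr2:109532544-109532573 and chr13:58909168-58909197 on the plus strand, and are descriptions of sequence only.
Vgf: tgaatgaacatTGACGTCAatggggcgggg
Bdnf: catatgacagcTCACGTCAaggcagcgtgg
Ntrk2: tgcgtcagcccTCACGTCActtcgccagca

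Beyond the 6 members, 69 further genes of the pathway were followed, of which 68 were tested. They were chosen with earlier results of these data known, so that counts of calls among them only describe the list. Ntf5, the gene of NT-4, had 0 to 5 reads per library and was not tested. Sort1, which encodes the sortilin co-receptor of pro-neurotrophins, stood at group means of 454 to 506 CPM and was not called in any of the 4 comparisons. In males 7 of the 68 were called after SCVS, all of them downregulated (10.3%, against 6.44% of all genes, of which 4.08% lower), with a median log2 fold change of -0.01 beside -0.01 over all genes. In females 1 of 68 was called (1.47%, against 1.73%), in the interaction 3 (4.41%, against 4.42%), and in NSF against NSM 6, all higher in females (8.82%, against 5.31%).

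The male calls fell in 2 groups. Of 9 listed genes that BDNF and activity induce, 5 were downregulated in males, with a median of -0.38 for the 9, a list likewise chosen with earlier results known. The immediate early gene Fos stood at 15.7, 19.1 and 18.03 CPM in NSM and at 10.9, 8.48 and 7.84 CPM in SM, a log2 fold change of -0.97 (SE 0.33, adjusted p = 0.116). Egr2, another immediate early transcription factor, fell by 0.76 on the log2 scale (adjusted p = 0.0482), and Nr4a1, an orphan nuclear receptor, by 0.58 (adjusted p = 0.122). Spry4, an inhibitor of receptor tyrosine kinase signalling, fell by 0.38 (adjusted p = 0.0942), and Arc, named outside the naming rule because its values were already known, by 0.53 (adjusted p = 0.22). For each of these 5, already chosen as called, the male groups did not overlap, as was so for 23% of all genes. In females none of the 9 was called, and in the interaction none was, so that a difference between the sexes was not shown for them. Fos and Egr2 remained called with the cortical covariate (-1.68 and -0.82) and after GC correction (-0.96 and -0.75). Without the 4 libraries, with SM1 the only SM library left, they were -0.69 and -0.67. Nr4a1 was lost without the 4 libraries (-0.36) and without NSM2 or SM3 (-0.47 each). Spry4 dropped just under the fold threshold after GC correction (-0.37), without the 4 libraries (-0.29) and in 7 of 12 fits without 1 library (NSM2, NSM3, SM2, SM3, NSF1, NSF3 or SF2, -0.37 to -0.34). Arc was lost after GC correction (-0.44), without the 4 libraries (-0.39) and without NSM2, NSM3, SM1, SM2, SM3, NSF1 or SF3 (-0.60 to -0.38).

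Of 7 genes for processing and release, Pcsk1 and Furin were downregulated in males. Both encode proprotein convertases, enzymes that cut precursors such as those of BDNF and VGF. Pcsk1 stood at 15.4, 17.1 and 16.2 CPM in NSM, at 10.4, 11.5 and 10.5 CPM in SM, at 15.3, 11.8 and 18.1 CPM in NSF, and at 15.7, 14.9 and 13.3 CPM in SF. The SM libraries lay below all 9 others, and for 23% of all genes the male groups did not overlap. Its male log2 fold change was -0.58 (SE 0.13, adjusted p = 0.0312), and its SCVS effects differed between the sexes by 0.57 (SE 0.18, adjusted p = 0.318). Both calls remained in all 12 fits without 1 library, with the cortical covariate (-0.82 and 0.89) and after GC correction (-0.60 and 0.58). Without the 4 libraries the values were -0.63 and 0.94, with SM1 alone in SM and NSF2, the lowest NSF library for Pcsk1, alone in NSF. Furin fell by 0.40 on the log2 scale (adjusted p = 0.0904), and was -0.37 with the cortical covariate, -0.33 after GC correction, -0.32 without the 4 libraries and -0.29 without NSM3 or SM2, under the fold threshold in each.

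In NSF against NSM the 6 pathway genes called included 2 of 6 partners of p75, the Nogo receptor gene Rtn4r (log2 fold change 1.53, adjusted p = 0.161) and Lingo1 (0.52, adjusted p = 0.123), whose products form a receptor complex with p75. Cadps2, which primes dense-core vesicles for BDNF release, was higher by 0.84 (adjusted p = 0.157), and Pcsk1n, the gene of an inhibitor of the Pcsk1 enzyme, by 1.54 (adjusted p = 0.184). Rtn4r stood at 1.71, 1.36 and 2.47 CPM in NSM, at 2.39, 3.55 and 4.76 in SM, at 6.42, 2.61 and 9.69 in NSF, and at 2.39, 3.85 and 4.83 in SF, and NSF3 was its highest library, as for Bdnf. With the cortical covariate Rtn4r was 0.06, Lingo1 0.12 and Cadps2 -0.05 in this comparison, without the 4 libraries they were 0.53, 0.22 and 0.18, and none was called in either fit. The Trk adaptors Frs3 (0.47, 60.9% GC) and Sh2b2 (0.47, 62.5% GC) were 0.24 and 0.19 after GC correction, 0.38 and 0.18 with the cortical covariate, and 0.45 and 0.26 without the 4 libraries, and were called in none of these fits. Frs3 was also lost without NSM1 or NSF3, Sh2b2 without NSM1, NSM2 or NSF3, and Pcsk1n without NSM1 (0.80) and with the cortical covariate (1.40). In females the 1 pathway gene called after SCVS was Npas4, an activity-dependent regulator of Bdnf transcription, at -0.62 (adjusted p = 0.948). It is named because it was the sole call, outside the naming rule, and it was lost without NSF1, NSF3, SF2 or SF3 (-0.66 to -0.34), with the cortical covariate (-0.45) and without the 4 libraries (-0.13).

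The small RNA libraries, with 5086554 to 13522287 counted reads, allow a look at miRs linked to Bdnf. Of 17 listed miRs 16 were among the 500 tested, and the rows carry precursor names, so that the 2 arms of a hairpin were not told apart. In males 2 of 16 were called (5.2% of all miRs were), in females 1 (4.8%) and in the interaction 4 (6.8%). The mature form of miR-206, best known from skeletal muscle, is shown with its seed (bases 2 to 8) in capitals, followed by the 3 places in the 3′ UTR of Bdnf that pair with the seed, in capitals within 30 bases of NCBIM37. They lie at chr2:109564511-109564540, chr2:109564705-109564734 and chr2:109565604-109565633, the mature sequence is from RefSeq (GRCm38.p6), and the set is shown because both mir-206 and Bdnf were called in males and in the interaction.
miR-206-3p: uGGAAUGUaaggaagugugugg
Bdnf site 1: aagtctgcattACATTCCtcgataatgttg
Bdnf site 2: ttggaaccaaaACATTCCgtttacatttta
Bdnf site 3: tggtacttgagACATTCCtaaaggaaggct

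The site ACATTCC occurred at least once in the longest annotated 3′ UTR of 9.12% of 20007 genes. Of 2289 genes whose 3′ UTR is at least as long as the 2895 bases of Bdnf, read over their first 2895 bases, 19.8% held a site and 0.393% held 3 or more. Of the other members only Ngfr held the site, once. Among the 16 tested miRs, 10 had an arm whose listed sequence has a seed match in the 3′ UTR of Bdnf, and mir-206 was the single one of these 10 called within a sex. Of mir-1a-1, also called in males, only the 5p arm was listed and searched. Whether its 3p arm matches the 3′ UTR of Bdnf was not examined, so mir-206 is the single one only among listed sequences.

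mir-206 stood at 67.8, 73.4 and 48.03 CPM in NSM, at 165, 139 and 111 CPM in SM, at 188, 260 and 162 CPM in NSF, and at 97.6, 147 and 146 CPM in SF. The groups overlapped in neither sex, which was so for 19.6% of all miRs in males and 13.6% in females. SCVS upregulated mir-206 in males by 1.14 on the log2 scale (SE 0.22, adjusted p = 0.0676) and downregulated it in females by 0.65 (SE 0.20, adjusted p = 0.344). The effects differed by -1.80 (SE 0.30, adjusted p = 0.0131), the single adjusted p below 0.05 among all 500 miRs in that comparison. All 3 calls remained in every fit without 1 library. mir-1a-1 was also upregulated in males, by 0.43 (adjusted p = 0.134), with an interaction of -0.59 (adjusted p = 0.294), and its male call was lost without NSM3 or SM1 (0.33 and 0.35, under the fold threshold). In males mir-206 and Bdnf thus moved in the same direction, both higher in SM than NSM. mir-132 and mir-212, which CREB induces, were not called, at 0.09 and -0.02 in males and -0.02 and 0.0040 in females.

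**Figure D5:**
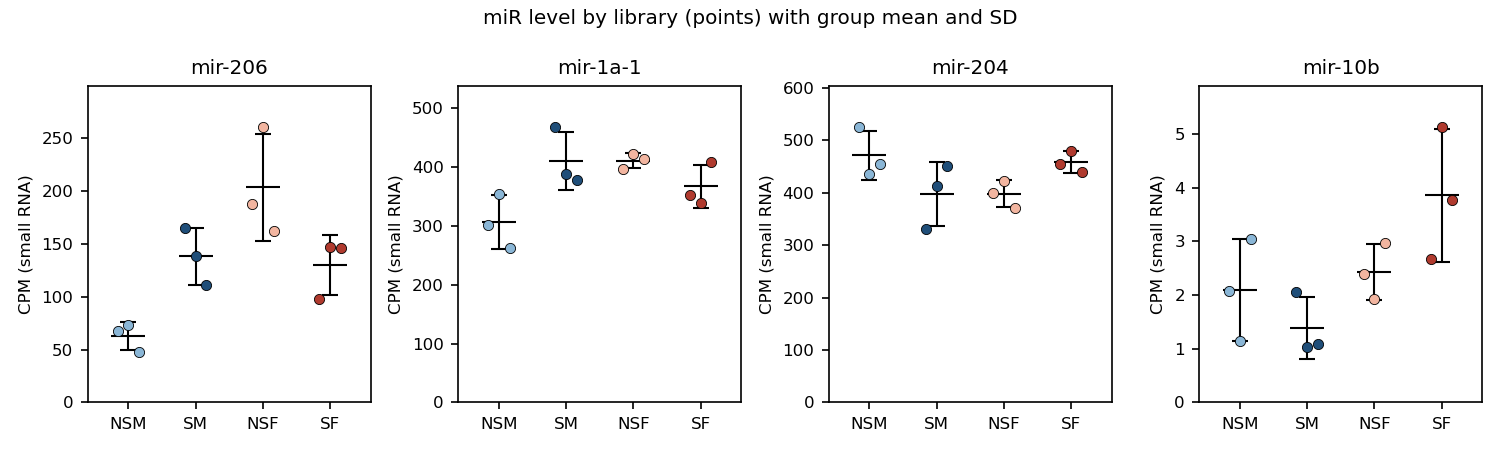
CPM of 4 miRs (y axis, from 0) in the small RNA libraries of the 4 groups (x axis), with 1 point per library, group mean and SD, n = 3 pools. For mir-206 all SM libraries lie above all NSM libraries and all SF libraries below all NSF libraries.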

How the data were processed

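Per the study's methods, polyA mRNA libraries (TruSeq v2, a kit that does not mark strand) were aligned with TopHat2 to NCBIM37 and counted with HTSeq, and small RNA was aligned with Bowtie to mm9. The values deposited by the authors are raw read counts per gene or miR, not normalized. Tool versions were not given in the sources used here. The members and gene lists were chosen with earlier results of these data known. Counts were scaled by TMM (edgeR 4.0.16) and fitted by voom-limma (limma 3.58.1, R 4.3.3) with 1 mean per group and all 12 libraries. Adjusted p-values are Benjamini-Hochberg over all 18593 genes or 500 miRs tested. CPM are TMM-scaled, and lengths are merged exons of GENCODE M1, in which no other gene overlaps a member. GC is that of the longest coding transcript (15658 of 18593 tested genes, 84.2%). The pathway genes named are those called in any comparison and averaging 10 reads or more, limited to the 12 of lowest p. Hras is Hras1 in this annotation. Likeness was Pearson's r of log2 CPM. Scripts were tested on simulated data.

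The labels do not pair same-numbered libraries. In the female small RNA libraries alone did the deviations of every same-numbered pair correlate above 0.1 (r = 0.116, 0.191 and 0.307), and the replicate block changed no miR call. Alternatives were other scalings, filters, edgeR, DESeq2 1.42.0, quality weights, a replicate block, single libraries left out, a cortical marker covariate and, added after seeing the data, a GC correction and a fit without 4 libraries.

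Most genes of the pathway list enter the counts only, and some are not reported here.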

Additional observations from a re-analysis of the deposited data

Results flagged for a closer look

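For 8 of the genes and miRs followed here the interaction was called by the unadjusted rule, and they are listed for that reason. By the same rule 4.42% of all genes and 6.8% of all miRs were called in the interaction. The difference, female minus male, was -2.47 on the log2 scale for Bdnf, 0.57 for Pcsk1, -0.85 for Cadps2 and -1.50 for Rtn4r. For the miRs it was -1.80 for mir-206, -0.59 for mir-1a-1, 1.17 for mir-10b and 0.47 for mir-204. Only mir-206 had an adjusted p below 0.05 (limma, 0.0131), while those of the others lay between 0.294 and 0.542.

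With the mean level of the cortical glutamatergic markers as a covariate, the interaction of Bdnf was 0.26, that of Cadps2 0.27 and that of Rtn4r 0.36, so that all 3 turned, whereas that of Pcsk1 was 0.89. Cadps2 was no longer called without NSM2, SM2, SM3, NSF1, NSF3 or SF1 (-0.78 to -0.58), and Rtn4r without NSM1, NSM2, SM2, SM3, NSF1, NSF3, SF1 or SF2 (-1.57 to -1.09). The value of mir-10b rests on 6 to 42 reads per library, and its call was lost without NSM1, NSM3, SM2, SM3, NSF1, NSF2, SF2 or SF3 (0.86 to 1.17). That of mir-204 was lost without NSM1 or SM1 (0.33 and 0.35).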

How the results depend on the processing

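Values follow the order males, females, interaction and NSF against NSM where 4 are given. For the 6 members, 508 of 590 alternative values kept their direction and their side of the threshold, 39 lost a call, 9 gained one and 34 changed sign. Of the members 2, 0, 1 and 2 were called, and 0 to 2, 0 to 2, 0 to 1 and 0 to 2 when single libraries were left out. With scaling by library size they were 1, 0, 0 and 1, with quality weights 1 in males and 2 in the interaction, with the cortical covariate 0, 0, 0 and 1, after GC correction 1 in males and 1 in NSF against NSM, without the 4 libraries 0, 1 and 0 in the first 3 comparisons, with the libraries of the comparison alone 0 in NSF against NSM, and by adjusted p 0 in all 4. The causes were not tested.

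Pathway calls (7, 1, 3 and 6) ranged over 4 to 9, 0 to 6, 1 to 5 and 5 to 8 without single libraries. They were 11 in males, 0 in females and 3 in NSF against NSM with the covariate, where 6.94%, 1.32% and 2.48% of all genes were called. By adjusted p with the fold threshold they were 2, 0, 0 and 0. With no fold threshold they were 21, 3, 9 and 18, where 21.5%, 4.23%, 9.55% and 15.4% of all genes passed. In females they were 2 with edgeR and with genes of at least 1 read, and 3 with quality weights, and in the interaction 1 with library size. The miR calls (2, 1 and 4) ranged over 1 to 3, 1 to 2 and 2 to 4 without single libraries, and were 0, 0 and 1 by adjusted p. In males they were 6 with no fold threshold, where 12.4% of all miRs passed.

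Signs turned with the covariate for Bdnf (-0.10, 0.16, 0.26 and -0.32), Ntf3 (-0.39 in males, 0.83 in the interaction, -0.26 in NSF against NSM), Ntrk3 (-0.12 in the interaction, 0.047 in NSF against NSM), Ngfr (-0.62 in the interaction), Cadps2 (0.27 in the interaction, -0.052 in NSF against NSM) and Rtn4r (0.36 in the interaction). Without the 4 libraries they turned for Bdnf (1.08 in females, 0.28 in the interaction), Ntf3 (-0.68 in males, 1.06 in the interaction), Ntrk3 (-0.064 in the interaction, 0.031 in NSF against NSM), Ngfr (-0.39 in females, -0.77 in the interaction), Cadps2 (0.22) and Rtn4r (0.031), both in the interaction. The interaction of Ntrk2 was 0.016 with quantile normalization, and that of Ntf3 0.23 with quality weights. Without single libraries the female value of Bdnf ran from -1.61 to 0.0099, that of Ntrk3 from -0.11 to 0.0091, that of Ngfr from -0.034 to 0.75 and that of Vgf from -0.29 to 0.0019, and Ntf3 ran from -0.23 to 0.67 in males, from -0.15 to 0.47 in females and from -0.55 to 0.36 in the interaction, where Ngfr ran from -0.28 to 0.50.

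In a fit that took the replicate number as block, 2 members were called in the interaction, where Vgf joined Bdnf (0.45, limma adjusted p = 0.397), and 2 pathway genes in females, and over all genes 1309, 362, 896 and 1000 were called. An adjusted p below 0.05 was then reached by 998, 0, 9 and 562 genes, against 618, 0, 5 and 53 without the block. Among them were Vgf (limma adjusted p = 0.0312) and Furin (0.0261) in males. In NSF against NSM Lingo1 (0.0096), Rtn4r (0.0238) and Pcsk1n (0.0253) were also among them. None of these 5 passed without the block. Same-numbered libraries deviated together with r = 0.0244, 0.000725 and 0.316 in males and 0.1, 0.0756 and 0.107 in females, and in small RNA with r = 0.0473, -0.0197 and 0.294 in males and 0.116, 0.191 and 0.307 in females. In both assays every library correlated best with its own number in females but not in males, and the block changed no miR call. Depth limits Ntf3, at a mean of 9 reads per library.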
